A study of Homo sapiens with 16 samples.

Results

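The genes described here encode the human enzymes that write, copy and oxidise cytosine methylation in DNA. They were taken by name as rows of the deposited count table, and all 8 (*DNMT1*, *DNMT3A*, *DNMT3B*, *UHRF1*, *UHRF2*, *TET1*, *TET2* and *TET3*) were found among its 33937 genes. In mammalian DNA, methyl groups sit mainly on cytosines that precede a guanine. DNMT1 copies this pattern onto the new strand after replication and is brought to hemimethylated sites by UHRF1, while DNMT3A and DNMT3B place methylation on unmethylated sites. TET1, TET2 and TET3 oxidise 5-methylcytosine to 5-hydroxymethylcytosine and further products, which opens a route to demethylation, and every DNMT reaction draws its methyl group from S-adenosylmethionine.

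The study asked how loss of NAA40, the enzyme that acetylates the N-terminus of histones H4 and H2A, alters gene expression in HCT116, an established human colorectal carcinoma line. HCT116 cells carried either a scrambled control hairpin (SCR) or a short hairpin RNA against *NAA40* (NAA40-KD), both stably introduced and switched on by doxycycline (dox). The libraries were made with a stranded kit according to the methods, and they measure RNA levels, not DNA methylation. Each line was grown for 96 h either with dox at 1 μg/ml, which made the groups SCR (+dox) and NAA40-KD (+dox), or with none, which made SCR (-dox) and the group NAA40-KD (-dox), with 4 libraries per group from RNA samples that the methods call independent. A figure legend of the study names a line NAA40-KD2, but the sample labels do not say which hairpin line was sequenced. The labels name a Direct-zol kit for the RNA and the methods name RNeasy.

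The 16 libraries held 11065606 to 13855486 counts each, and levels are given as CPM, a library's counts scaled to a common total, with edgeR's TMM factors to correct for differences in library composition. *NAA40* itself went against the labels. In NAA40-KD (-dox) it averaged 11.8 ± 1.94 CPM (SD, n = 4), 40.2% of SCR (-dox) (p = 0.0286 in an exact permutation test, two-sided, and no smaller value can be reached with 4 against 4), and in NAA40-KD (+dox) it averaged 30.3 ± 1.59 CPM, 111% of SCR (+dox) (p = 0.0571 in the same exact test). For that reason a group name here repeats the label and nothing more, and a direction between groups holds only as far as the labels do. The groups follow the sample titles, which mention dox only for the (+dox) groups. The count columns of those groups are headed CTRL-Dox and KD-Dox, and those of the (-dox) groups CTRL-wDox and KD-wDox. What the letter w stands for is not given in the sources used here. The library labelled NAA40-KD (-dox) replicate 4 stood apart from its group, with a median absolute log2 difference of 0.768 per gene against 0.0850 to 0.294 in the other 15 libraries. Its deviation rose with the GC content of the transcript (Spearman's rho 0.850 across 14366 genes), and 5.03% of its counts were mitochondrial, against 6.42% to 14.3% elsewhere. Of the 12 colorectal epithelial markers, *EPCAM* (257 to 397 CPM), *CDH1* and the keratins *KRT8*, *KRT18* and *KRT19* were abundant in every library, whereas *VIL1*, *CDX1*, *LGR5* and *ASCL2* had at most 3 counts in any of them. Of 13 markers of other cell types only *COL1A1* exceeded 1 CPM in every library, the leukocyte gene *PTPRC* reached at most 3 counts, and the summed level of these markers was 60.1 to 98.9 CPM outside NAA40-KD (-dox) and 70.6 to 204 CPM within it.

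All 8 genes passed the filter of 1 CPM in at least 4 libraries. Levels of different genes were compared per kilobase of exon, with all annotated exons of a gene joined. This length was 4630 bases for *DNMT3B*, 5145 for *UHRF1*, 9796 for *DNMT1* and 16474 for *TET2*. It can exceed that of the transcripts the cells make, which lowers the value of a gene. The order and the shares of different genes therefore depend on the annotation. *DNMT1* had the highest mean in every group, at 27.6 ± 1.56 CPM per kb in SCR (-dox), followed there by *DNMT3B* at 18.6 ± 2.35 and *UHRF1* at 16.5 ± 2.65, whose ranges overlapped. *TET3* (4.84 ± 0.376) and *UHRF2* (4.69 ± 0.622) came next and overlapped each other as well. *DNMT3A* stood at 3.25 ± 0.249, *TET2* at 1.90 ± 0.139 and *TET1* at 1.04 ± 0.154, each with no overlap with its neighbour in this order. The order was the same in SCR (+dox), except that *UHRF2* and *TET3* changed places. In SCR (+dox) and NAA40-KD (-dox) the range of *DNMT1* overlapped that of the next gene. In both NAA40-KD groups the mean of *UHRF1* lay above that of *DNMT3B*, and in NAA40-KD (+dox) their ranges did not overlap (19.0 ± 1.03 against 15.9 ± 1.33 CPM per kb). Without replicate 4, NAA40-KD (-dox) gave 10.4 ± 0.341 for *UHRF1* and 10.9 ± 0.595 for *DNMT3B*, so that their order turned, and *DNMT1* (18.5 ± 0.717) no longer overlapped the next gene. *DNMT3B* thus made up 41.1% ± 0.895 of the summed per-kilobase level of the DNMT genes in SCR (+dox) and 34.4% ± 1.51 in NAA40-KD (+dox). In SCR (-dox) its share was 37.5% ± 3.55. The range there, 34.2% to 40.9%, overlapped those of NAA40-KD (-dox) (33.4% to 34.6%) and NAA40-KD (+dox) (32.2% to 35.8%). The share of *TET3* in the summed TET level was 61.8% ± 3.10 in SCR (+dox) and 65.3% ± 2.42 in NAA40-KD (+dox), with overlapping ranges, while that of *TET2* ranged from 22.1% to 24.8% in the former and from 16.6% to 21.0% in the latter.

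**Figure D1:**
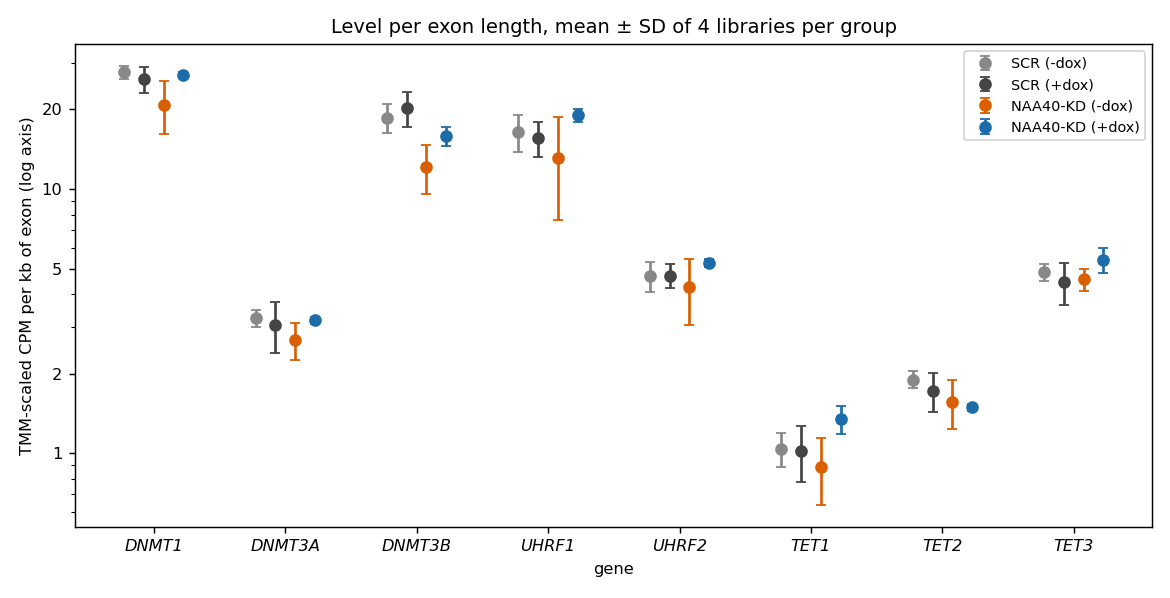
TMM-scaled CPM per kilobase of exon for each gene, on a log axis, as the mean (point) and SD (bar) of 4 libraries in each of the 4 labelled groups. By mean, *DNMT1* is the highest and *TET1* the lowest gene in every group, and NAA40-KD (-dox) has the widest SD for *DNMT1*, *UHRF1*, *UHRF2*, *TET1* and *TET2*.

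*DNMT1* lies on chromosome 19 of GRCh38 (GENCODE release 29), from 10133345 to 10231286 on the minus strand, and *UHRF1* on the plus strand of the same chromosome, from 4903080 to 4962154. *DNMT3B* lies on chromosome 20, from 32762385 to 32809356, and *UHRF2* on chromosome 9, from 6413151 to 6507054, both on the plus strand. *DNMT3A* (minus strand, 25227855 to 25342590) and *TET3* (plus strand, 73986404 to 74108176) are both on chromosome 2. *TET1* is on chromosome 10, from 68560656 to 68694482, and *TET2* on chromosome 4, from 105145875 to 105279816, both on the plus strand. Exons of *DNMT1* overlap those of *S1PR2*, a sphingosine-1-phosphate receptor gene on the same strand, so reads in the shared part cannot be assigned to either with certainty. *S1PR2* stood at 10.1 ± 0.537 CPM in SCR (-dox), 9.06 ± 0.219 in SCR (+dox), 19.3 ± 4.95 in NAA40-KD (-dox) and 12.1 ± 0.607 in NAA40-KD (+dox), and so by group mean was highest where *DNMT1* was lowest. By library this did not hold throughout. In NAA40-KD (-dox) replicate 4 both genes were at the highest of their group, *S1PR2* at 26.5 CPM and *DNMT1* at 273 CPM. No other member shared exon sequence with an annotated gene.

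Promoter stretches of *DNMT1*, *UHRF1* and *DNMT3B* are shown as 2 members with a match and 1 without, from the 4 that were called lower when NAA40-KD (-dox) was set against SCR (-dox) without its replicate 4, as described later. The other, *DNMT3A*, had 6 windows with 0 matches. They run from 150 bases before to 30 bases after a RefSeq start on GRCh38.p14, at chr19:10194924-10195103 (minus strand), chr19:4909351-4909530 (plus strand) and chr20:32779702-32779881 (plus strand). Capitals mark matches to the consensus of E2F, the transcription factor family of the G1/S transition, searched on both strands as TTTGGCGC, TTTCGCGC, TTTCCCGC and TTTGCCGC.
DNMT1: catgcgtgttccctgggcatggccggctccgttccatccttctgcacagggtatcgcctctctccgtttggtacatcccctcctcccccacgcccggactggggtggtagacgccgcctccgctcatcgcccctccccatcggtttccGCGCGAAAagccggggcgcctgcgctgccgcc
UHRF1: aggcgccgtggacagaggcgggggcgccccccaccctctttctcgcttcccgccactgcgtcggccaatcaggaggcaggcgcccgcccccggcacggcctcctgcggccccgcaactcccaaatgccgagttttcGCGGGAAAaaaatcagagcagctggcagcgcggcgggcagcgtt
DNMT3B: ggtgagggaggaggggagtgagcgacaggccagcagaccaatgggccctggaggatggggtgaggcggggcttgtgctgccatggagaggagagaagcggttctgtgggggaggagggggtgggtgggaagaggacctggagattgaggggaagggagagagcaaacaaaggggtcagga
The *DNMT1* stretch holds 1 match that spans its start, the *UHRF1* stretch holds 1 match, and the *DNMT3B* stretch holds 0. The CpG dinucleotides number 19 and 21 in the first and second of these and 3 in that of *DNMT3B*. All 3 stretches lie inside the gene spans given above. The *DNMT3B* stretch starts at 32779702, in a span that begins at 32762385. The span of *UHRF1* begins at 4903080 and that of *DNMT1*, on the minus strand, at 10231286. No stretch at these ends was examined for any of the 3 genes, so the counts do not describe promoters there. The *UHRF1* stretch shown was taken from a window with a match. Over whole windows of 300 bases, RefSeq gave 19 for the 8 genes, and a match was found for *DNMT1* and for 2 of the 3 windows of *UHRF1*, and in no window of the other 6 genes. Such a match was held by 3.32% of all 35116 promoter windows. Counted per gene, at least 1 window matched for 3.99% of the 27305 genes that had one. The same held for 20 of the 36 S phase genes with a window and for 2 of the 8 genes described here. A match describes letters in the window, not binding.

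The comparison labelled as undosed, NAA40-KD (-dox) against SCR (-dox), is the one in which *NAA40* was low. The copying enzyme *DNMT1* stood at 283, 273, 249 and 278 CPM in the 4 SCR (-dox) libraries and at 188, 174, 181 and 273 CPM in the 4 NAA40-KD (-dox) libraries. *UHRF1* stood at 83.2, 78.6, 72.8 and 104 CPM in SCR (-dox) and at 51.9, 53.3, 55.4 and 110 CPM in NAA40-KD (-dox). For both genes the first 3 knockdown-labelled libraries lay below every control library, and replicate 4 lay among the controls or above them, so the groups overlapped.

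*DNMT3B*, an enzyme of new methylation, stood at 79.7, 99.4, 89.9 and 75.0 CPM in SCR (-dox) and at 53.4, 49.7, 48.1 and 73.5 CPM in NAA40-KD (-dox). It was the only one of the 8 whose groups did not overlap in this comparison, and replicate 4 was again the highest of its group. The share of all genes whose groups did not overlap was not counted, here or in the other comparisons. *DNMT3A* ranged from 34.9 to 41.4 CPM in SCR (-dox) and from 27.4 to 39.4 CPM in NAA40-KD (-dox), where replicate 4 gave the highest value.

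**Figure D2:**
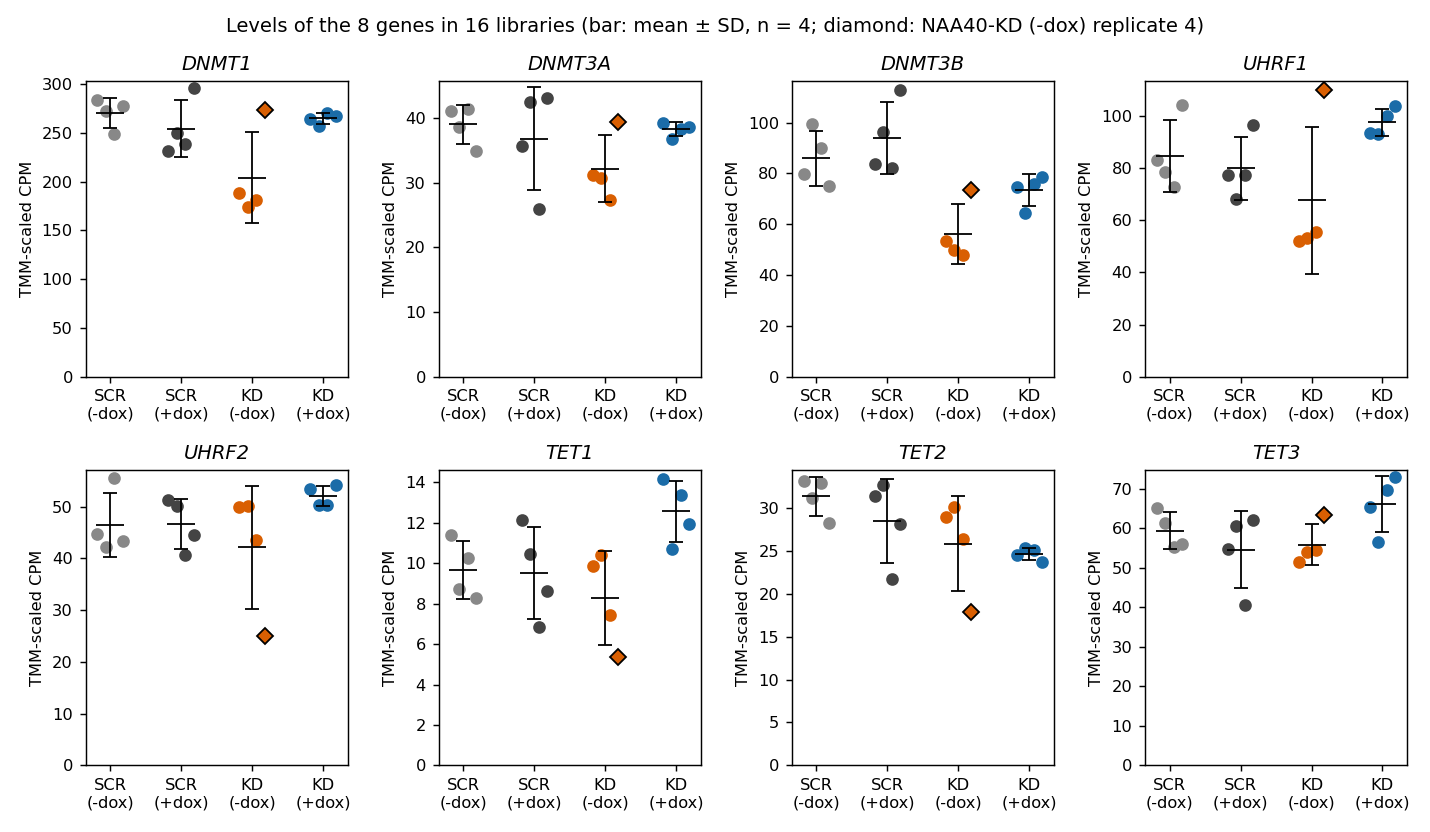
TMM-scaled CPM of each gene (vertical axis, from 0) in the 4 labelled groups, 1 point per library, with the group mean and SD (n = 4) as a horizontal mark and bar. The diamond, NAA40-KD (-dox) replicate 4, lies above its 3 companions for *DNMT1*, *DNMT3A*, *DNMT3B*, *UHRF1* and *TET3* and below them for *UHRF2*, *TET1* and *TET2*.

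With all 8 libraries, 0 of the 8 genes passed an adjusted p of 0.05 in the quasi-likelihood F test of edgeR, with p adjusted over all genes by Benjamini-Hochberg, where 6.42% of 13903 genes did. The log2 fold changes were all negative, from -0.60 ± 0.184 (SE) for *DNMT3B* (adjusted p = 0.0825) and -0.40 ± 0.176 for *DNMT1* (adjusted p = 0.210) to -0.08 ± 0.142 for *TET3*. *UHRF1* gave -0.31 ± 0.270 (adjusted p = 0.524). At an unadjusted p under 0.05 there were 2 genes, *DNMT1* and *DNMT3B*, where 23.6% of all genes tested were, and at an adjusted p under 0.05 DESeq2 called 1, *DNMT3B* (adjusted p = 0.0192), and limma-voom 0. In RNA from a whole culture, fewer cells of a kind and less RNA per cell cannot be told apart.

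Without NAA40-KD (-dox) replicate 4, the same test called 4 of the 8 genes, all lower, where 36.5% of 13751 genes were called and 19.4% were called lower. *DNMT3B* fell by 0.77 on the log2 scale (SE 0.103, adjusted p = 4.18e-05), *UHRF1* fell by 0.67 (SE 0.112, adjusted p = 0.000299), *DNMT1* fell by 0.58 (SE 0.0832, adjusted p = 7.70e-05) and *DNMT3A* fell by 0.40 (SE 0.102, adjusted p = 0.00673). For none of these 4 genes did the groups then overlap, and how many of all genes did the same was not counted. The means of the 3 remaining libraries were 181 ± 7.02 CPM for *DNMT1*, 53.5 ± 1.76 for *UHRF1*, 50.4 ± 2.76 for *DNMT3B* and 29.7 ± 2.07 for *DNMT3A* (SD, n = 3), against 271 ± 15.3, 84.7 ± 13.6, 86.0 ± 10.9 and 39.0 ± 2.99 in SCR (-dox). An offset for the GC content and length of each transcript, with all 8 libraries kept, called the same 4 genes lower, where 37% of 13879 genes were called.

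*UHRF2*, a relative of *UHRF1*, and the 3 TET genes did not pass the test in either fit. Without replicate 4 their log2 fold changes were 0.04 ± 0.109 for *UHRF2*, -0.07 ± 0.161 for *TET1*, -0.14 ± 0.102 for *TET2* and -0.16 ± 0.0889 for *TET3*, although the 3 remaining *TET3* libraries (51.4 to 54.5 CPM) lay just below the lowest control (55.3 CPM).

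In NAA40-KD (-dox) replicate 4 itself, each of the 8 genes lay outside the range of its 3 companions, 5 above and 3 below. The share of all genes outside that range was not counted. This library departed from its group by a median of 0.768 per gene on the log2 scale. *UHRF1* was higher there by 1.04 on the log2 scale than the mean of the other 3, *DNMT1* by 0.59, *DNMT3B* by 0.55, *DNMT3A* by 0.41 and *TET3* by 0.25. *UHRF2* gave -0.94, *TET1* gave -0.76 and *TET2* gave -0.67. The GC content of the longest transcript was 52.3% to 55.4% for the 5 genes above and 41.0% to 44.2% for the 3 below. Whether GC content accounts for these values was not tested.

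The comparison labelled as dosed, NAA40-KD (+dox) against SCR (+dox), is the one the labels give as the knockdown, and in it 2 of the 8 genes passed the test, 1 in each direction, where 24.5% of 13869 genes did, 10.9% higher and 13.7% lower. *DNMT3B* stood at 83.8, 96.5, 82.2 and 113 CPM in SCR (+dox) and at 74.7, 64.6, 75.8 and 78.8 CPM in NAA40-KD (+dox), and the groups did not overlap. It fell by 0.36 on the log2 scale (SE 0.106, edgeR adjusted p = 0.0207). *UHRF1* stood at 77.5, 68.1, 77.4 and 96.6 CPM in SCR (+dox) and at 93.5, 93.0, 99.98 and 104 CPM in NAA40-KD (+dox), where SCR (+dox) replicate 4 lay within the knockdown-labelled range. It rose by 0.29 (SE 0.101, edgeR adjusted p = 0.0455). Spearman's rho of library deviation with GC content was -0.50, -0.23, -0.03 and 0.49 in SCR (+dox) replicates 1 to 4. In NAA40-KD (+dox) it ranged from -0.36 to -0.10. With the offset for GC content and length both calls remained (edgeR adjusted p = 0.0065 for *DNMT3B* and 0.0020 for *UHRF1*), where 35.3% of all genes were called. The part of GC content in these calls was not tested otherwise.

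*DNMT3B* kept its call when any of 5 of the 8 libraries was left out, and lost it without SCR (+dox) replicate 4 (log2 fold change -0.25, edgeR adjusted p = 0.0543), NAA40-KD (+dox) replicate 1 (-0.36, 0.0510) or NAA40-KD (+dox) replicate 2 (-0.30, 0.0868). *UHRF1* kept its call in 1 of these 8 fits, the one without SCR (+dox) replicate 4 (0.39, edgeR adjusted p = 0.00363), and in the other 7 its log2 fold change was 0.22 to 0.31 with adjusted p between 0.0678 and 0.125. Fitted on all 16 libraries at once, neither gene passed (edgeR adjusted p = 0.183 for *DNMT3B* and 0.469 for *UHRF1*). Their log2 fold changes there were -0.35 and 0.29. That fit takes the spread of each gene from every group, with NAA40-KD (-dox) replicate 4 included. The part of that library in the loss of the calls was not tested.

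Between the same groups *DNMT1* differed by 0.06 ± 0.0889 on the log2 scale and *DNMT3A* by 0.05 ± 0.129, with edgeR adjusted p of 0.674 and 0.797. *DNMT1* ranged from 232 to 296 CPM in SCR (+dox) and from 257 to 270 CPM in NAA40-KD (+dox). *DNMT3A* ranged from 26.0 to 43.1 CPM in the former, where replicate 3 was far below the others, and from 36.7 to 39.3 CPM in the latter. *UHRF2* gave 0.16 ± 0.0958 (edgeR adjusted p = 0.242).

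*TET1*, the weakest of the TET genes, had 12.1, 10.5, 6.83 and 8.64 CPM in SCR (+dox) and 14.2, 10.7, 13.4 and 11.95 CPM in NAA40-KD (+dox), with 92 to 181 counts per library behind these values. Its log2 fold change of 0.40 ± 0.158 did not pass (edgeR adjusted p = 0.0722), and neither did that of *TET3*, 0.28 ± 0.121 (edgeR adjusted p = 0.105). *TET2* had 31.3, 32.6, 21.7 and 28.1 CPM in SCR (+dox) and 24.5, 25.3, 25.1 and 23.7 CPM in NAA40-KD (+dox), and its log2 fold change was -0.21 ± 0.119 (edgeR adjusted p = 0.216). SCR (+dox) replicate 3 was the lowest library of all 16 for *DNMT3A* and *TET3*, and the lowest of its group for *TET1* and *TET2*. Across genes, its deviation from the mean of the 16 libraries fell with exon length (Spearman's rho -0.35, against -0.19 to 0.19 elsewhere). Whether length accounts for these values was not tested. Without this library, *TET2* was called lower (-0.32, edgeR adjusted p = 0.0206), while *TET1* gave 0.26 (0.188) and *TET3* 0.15 (0.249). Without SCR (+dox) replicate 1 *TET1* was called higher (0.54, 0.0214).

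**Figure D3:**
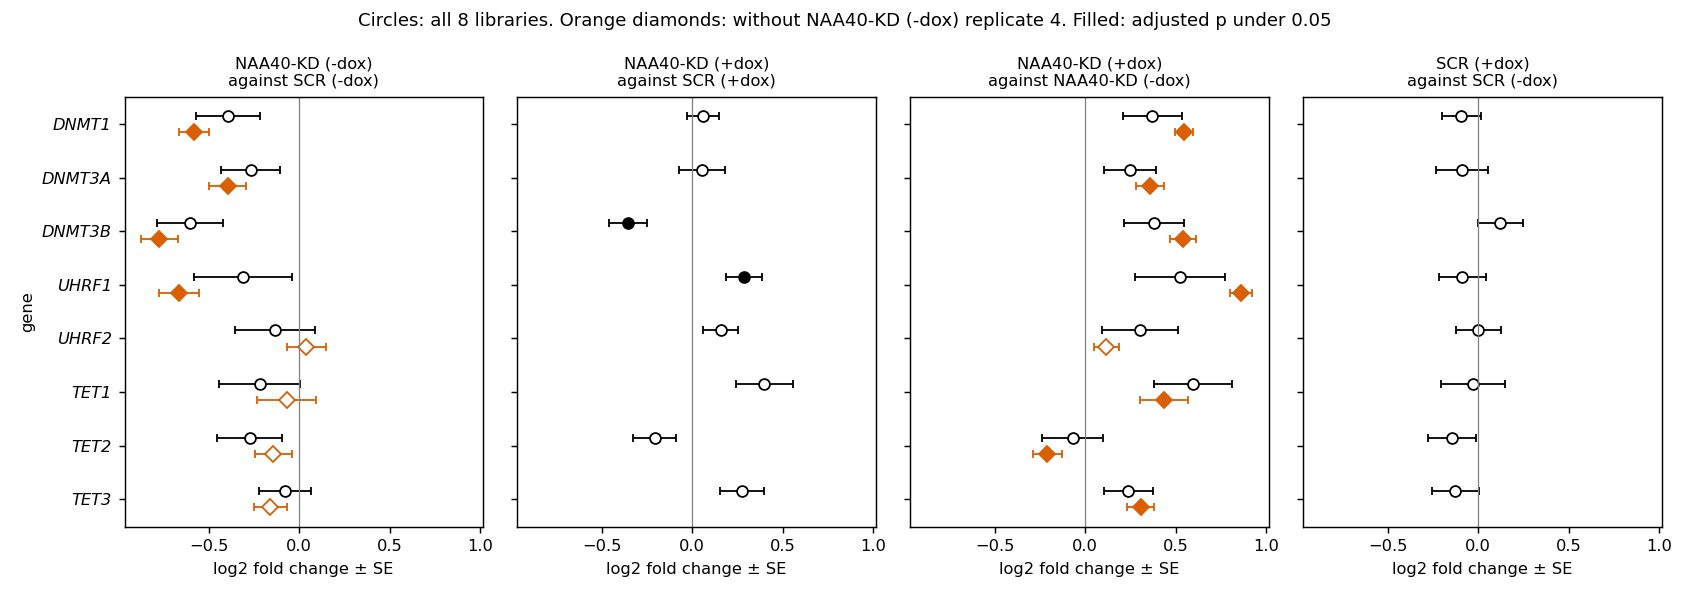
Log2 fold change (horizontal axis) with its SE for each of the 8 genes in the 4 comparisons of 2 groups, from edgeR on all 8 libraries (black circles) and without NAA40-KD (-dox) replicate 4 (orange diamonds), filled where the adjusted p was under 0.05. *DNMT3B* and *UHRF1* are the filled circles, at -0.36 and 0.29 in NAA40-KD (+dox) against SCR (+dox).

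Within the hairpin line, NAA40-KD (+dox) against NAA40-KD (-dox), 0 of the 8 genes passed edgeR's test with Benjamini-Hochberg adjustment on all 8 libraries, where 10.2% of 13844 genes did, with 3 genes at an unadjusted p under 0.05 (27.7% of all genes) and 0 called by DESeq2 or limma-voom. This comparison shares its libraries with those already described and is no separate evidence. *TET1* had the greatest difference, 0.60 ± 0.216 (adjusted p = 0.112), and its groups did not overlap, as 9.85, 10.4, 7.44 and 5.35 CPM in NAA40-KD (-dox) all lay under 10.7 CPM. *UHRF2* (24.9 to 50.1 CPM against 50.4 to 54.2 CPM) did not overlap either, and the share of all genes without overlap was not counted.

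Without NAA40-KD (-dox) replicate 4, 7 of the 8 genes were called, where 52.4% of 13700 genes were, 25.8% higher and 26.6% lower. The 6 higher ones were *UHRF1* at 0.86 ± 0.0613 (edgeR adjusted p = 3.70e-11), *DNMT1* at 0.55 ± 0.0481 (1.48e-09), *DNMT3B* at 0.54 ± 0.0705 (7.78e-07), *TET1* at 0.44 ± 0.132 (0.00784), *DNMT3A* at 0.36 ± 0.0756 (0.000336) and *TET3* at 0.31 ± 0.0745 (0.00139). *TET2* was the 1 called lower, at -0.21 ± 0.0810 (edgeR adjusted p = 0.0327). *UHRF2* was not called, at 0.12 ± 0.0688 (edgeR adjusted p = 0.160).

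In the scrambled line, SCR (+dox) against SCR (-dox), 0 of the 8 genes and 0 of 13882 genes (0%) passed edgeR's test with Benjamini-Hochberg adjustment. At an unadjusted p under 0.05 there were 271 genes (1.95%), none of them a member, and DESeq2 and limma-voom also called 0. The members' log2 fold changes ran from -0.14 ± 0.133 for *TET2* to 0.12 ± 0.123 for *DNMT3B*, and the groups of every member overlapped.

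The interaction of line and dox label tested whether the difference between the lines itself differed between the labels, over all 16 libraries. It passed for 0 of the 8 genes in edgeR with Benjamini-Hochberg adjustment (9.22% of 14392 genes), with 0.61 ± 0.291 for *UHRF1* (adjusted p = 0.201), 0.62 ± 0.293 for *TET1* (0.196) and 0.47 ± 0.189 for *DNMT1* (0.134). At an unadjusted p under 0.05 there were 2 members, *DNMT1* and *TET1*, and 25% of all genes, and DESeq2 and limma-voom called 0 members. For *NAA40* the interaction was 1.46 ± 0.184 (adjusted p = 0.000220). Without NAA40-KD (-dox) replicate 4 it passed for 2 genes, *UHRF1* at 0.95 ± 0.156 (edgeR adjusted p = 0.000128) and *DNMT1* at 0.63 ± 0.119 (0.000458), where 24.2% of 14302 genes passed. *DNMT3B*, with a negative difference in both comparisons of the lines, gave 0.41 ± 0.154 there (edgeR adjusted p = 0.0541).

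*DNMT1* and *UHRF1* are known to be transcribed most in dividing cells, and S phase genes were lower beside them. Of 44 S phase genes, 30 were called lower and 0 higher in NAA40-KD (-dox) against SCR (-dox) by edgeR, with a median log2 fold change of -1.08, against 0.04 over all genes tested. They included the replication helicase subunit *MCM4* (-1.42 ± 0.177) and the polymerase alpha subunit *POLA2* (-1.39 ± 0.162). Of all genes tested, 6.42% were called in this comparison and 36.5% without replicate 4, when all 44 S phase genes were called lower. In the 4 NAA40-KD (-dox) libraries the median of these genes lay at -0.99, -1.24, -1.01 and -1.27 relative to the mean of SCR (-dox) on the log2 scale.

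*UHRF1* lay at -0.69, -0.65, -0.60 and 0.39 in the same libraries, *DNMT1* at -0.52, -0.63, -0.58 and 0.02, and *DNMT3B* at -0.68, -0.78, -0.83 and -0.22. In replicates 1 to 3 these genes were low together with the S phase genes, though by less, and in replicate 4 the S phase median was the lowest of the 16 libraries while *UHRF1* was at its highest. Of 30 G2/M genes, 10 were called lower in this comparison, with a median of -0.69, and 26 without replicate 4, with a median of -0.59, among them the proliferation marker *MKI67* (-1.03 ± 0.153). The shares of all genes called were again 6.42% and 36.5%. The part of cell cycling in the members' values was not tested.

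**Figure D4:**
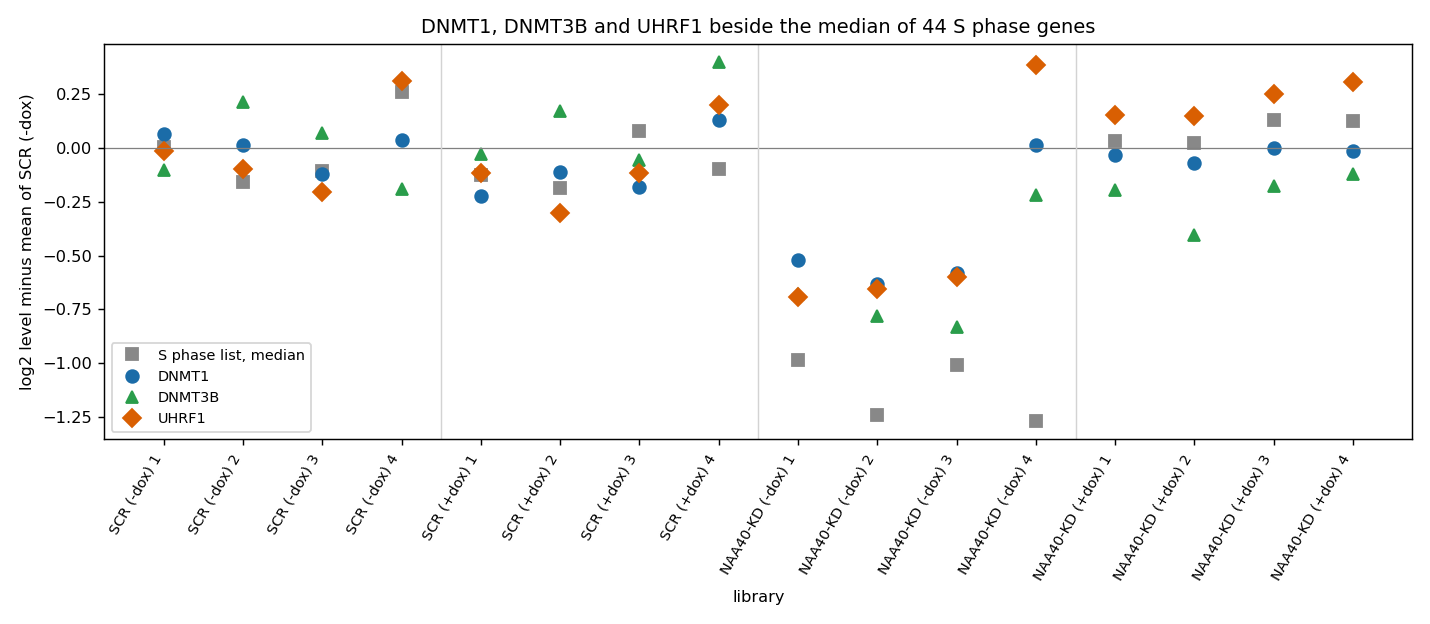
Log2 level relative to the mean of SCR (-dox) (vertical axis) in each of the 16 libraries, for *DNMT1*, *DNMT3B*, *UHRF1* and the median of 44 S phase genes. The 3 genes and the S phase median are below -0.5 in NAA40-KD (-dox) replicates 1 to 3, and only the S phase median is in replicate 4, at -1.27.

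In NAA40-KD (+dox) against SCR (+dox), 10 of the 44 S phase genes were called higher and 3 lower by edgeR, with a median of 0.12, and of the G2/M genes 0 were higher and 6 lower, with a median of -0.13. Of all genes tested there, 24.5% were called, 10.9% higher and 13.7% lower. *UHRF1* rose in a comparison in which *MCM4* also rose (0.32 ± 0.0967) and in which *MCM6* (-0.93 ± 0.0942), *TK1* (-0.51 ± 0.118) and the mitotic regulator *BIRC5* (-0.94 ± 0.111) fell.

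Partners of maintenance methylation, 13 tested of 15 listed, held 1 gene called lower and 0 higher in NAA40-KD (-dox) against SCR (-dox) by edgeR (median -0.44), and 4 called higher and 0 lower in NAA40-KD (+dox) against SCR (+dox) (median 0.20). *CDCA7*, which works with the remodeller HELLS to let methylation be maintained, accounted for the first, at -0.86 ± 0.197, and rose by 0.69 ± 0.0911 in the second. *HELLS* itself rose by 0.38 ± 0.0905 in the (+dox) comparison and gave -1.20 ± 0.316 in the (-dox) comparison, where its adjusted p was 0.0538 in edgeR's test. Without replicate 4, 7 of the 13 were called lower in the (-dox) comparison, *HELLS* among them. For these and the lists that follow, the share of all genes called was 6.42% in the (-dox) comparison on all libraries, 36.5% in it without replicate 4 and 24.5% in the (+dox) comparison.

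Of 10 methyl-CpG readers, 0 were called in the (-dox) comparison, and in the (+dox) comparison 1 rose and 2 fell by edgeR's test, among them *ZBTB33*, which encodes Kaiso (0.67 ± 0.132), and *MBD6* (-0.50 ± 0.101). Without replicate 4, 2 of the readers were higher and 3 lower in the (-dox) comparison. Of 17 genes of base excision and TET regulation, 1 was called lower and 0 higher in the (-dox) comparison, the DNA glycosylase *NEIL3* (-1.27 ± 0.216), and 2 were higher and 4 lower in the (+dox) comparison. *GADD45A*, a stress-induced gene linked to demethylation, fell by 1.20 on the log2 scale there (SE 0.0961), and *NEIL3* fell by 0.44 (SE 0.102). Without replicate 4, 1 of the 17 was higher and 5 were lower in the (-dox) comparison.

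Of 10 genes of methyl donor supply, 1 was lower and 0 higher in the (-dox) comparison, and 2 were higher and 0 lower in the (+dox) comparison by edgeR's test. *MTR*, the methionine synthase that regenerates methionine from homocysteine, was called in both, at -0.78 ± 0.156 and 0.57 ± 0.107, and its reductase *MTRR* rose by 0.36 ± 0.0967 in the second. The (-dox) comparison without replicate 4 had 1 of the 10 higher and 4 lower. Of 14 genes that make or consume the TET cosubstrate 2-oxoglutarate or its competitors, 0 were called in the (-dox) comparison, and 1 was higher and 3 lower in the (+dox) comparison, among them the citrate carrier *SLC25A1* (-0.87 ± 0.110) and the isocitrate dehydrogenase *IDH1* (-0.36 ± 0.0851). The (-dox) comparison had 1 of the 14 higher and 3 lower once replicate 4 was left out.

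Genes that DNA methylation commonly silences were mostly too weak to test. Of 13 germline genes that had counts listed, 2 could be tested, with 0 called in the (-dox) comparison and 1, *MAGEA3*, lower in the (+dox) comparison (-0.33 ± 0.0967 by edgeR). Of 18 genes often methylated in colorectal cancer 7 were tested, with 0 called in the (-dox) comparison and 1 higher and 3 lower in the (+dox) comparison, among them *RUNX3* (0.36 ± 0.0957) and *NDRG4* (-1.32 ± 0.137). In the (-dox) comparison the median of these 7 was 0.35 with replicate 4 and -0.04 without it, when 3 of them were called lower and 0 higher, as was 1 of the 2 germline genes. Of the 7 epithelial markers tested, 1 was lower in the (-dox) comparison and 2 in the (+dox) comparison, *KRT20* in both (-1.67 ± 0.203 and -1.80 ± 0.198), and 0 of the 3 tested markers of other cell types were called in either. Leaving out replicate 4 gave 3 epithelial markers higher and 1 lower in the (-dox) comparison, and again 0 of the other markers.

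For the 2 members that passed a test on all libraries, the genes with the most similar profile were found by the root mean square difference of log2 CPM over the 16 libraries, after subtraction of each gene's own mean, among 14391 others. *DNMT3B* was nearest to *MCIDAS* (0.115), *PLEK2* (0.128) and *ANKRD11* (0.132), where its own SD over the libraries was 0.337. *PLEK2* stood at 56.5, 60.5, 38.5 and 44.5 CPM as the group means of SCR (-dox), then SCR (+dox), then NAA40-KD (-dox) and last NAA40-KD (+dox). Among the genes nearest to *UHRF1* were *TCOF1* (0.116) and *FANCG* (0.128), against its own SD of 0.341. *FANCG*, a gene of the Fanconi anaemia core complex, stood at 36.3, 36.3, 28.96 and 43.0 CPM in the groups in that order. These are descriptions over libraries that differ in their dependence on GC content, and replicate 4 is among them.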

How the data were processed

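The authors deposited raw counts for 33937 genes, not normalized, which per the methods came from STAR alignments summed per gene by featureCounts. The methods name the mouse build mm10 and the submitters' processing notes hg38 and GRCm38, while the identifiers are human Ensembl identifiers, of which 33811 were found in GENCODE release 29 on GRCh38. Whether featureCounts used strand is not given in the sources used here. The number of count columns that matched no sample was 0.

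Fold changes were computed from the deposited counts with edgeR 4.0.16 in R 4.3.3, by robust quasi-likelihood F tests, two-sided, after TMM scaling, over genes with CPM above 1 in at least 4 libraries of the fit, with Benjamini-Hochberg adjustment over all of them. Each comparison of 4 libraries against 4 had its own fit, and the interaction used all 16. A gene was called at an adjusted p under 0.05, and a stricter rule, an absolute log2 fold change above 1 as well, called 0 members in every comparison. The SE is the size of the log2 fold change over the square root of F. Level errors are SDs. Library totals limit precision for weak genes such as *TET1*, with 65 to 181 counts per library. Each library was counted as a replicate because the methods call the RNA samples independent. Libraries of a group differed by more than sampling noise, which does not by itself show independence. The chi-square per degree of freedom was 1.79 to 4.81 in NAA40-KD (+dox) and 2.57 to 7.81 among NAA40-KD (-dox) replicates 1 to 3. It was 9.43 to 45.4 within the SCR groups and reached 157 in pairs with NAA40-KD (-dox) replicate 4. The procedure was tested on simulated counts for the (+dox) comparison, with known changes and the same dispersion for every gene. They held no GC, length or outlier-library effect, so that test says nothing about such effects.

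Alternatives were DESeq2 1.42.0, limma-voom (limma 3.58.1), library-size and upper-quartile scaling, 2 other filters, adjusted p limits of 0.01 and 0.1, a fit over all 16 libraries, a replicate block and each library left out. An offset for GC content and length (lowess, span 0.3) and the lists without NAA40-KD (-dox) replicate 4 were added after the data had been seen. The 8 genes and the lists (maintenance partners, methyl-CpG readers, base excision and TET regulation, methyl donor supply, TET cosubstrates, germline genes, genes methylated in colorectal cancer, S phase, G2/M, epithelial and other markers) were chosen with earlier results of these data known, and list counts are descriptions. The other genes named were, per list, up to 4 called genes with the smallest p in the (-dox) comparison and up to 2 in the (+dox) comparison, and the 3 nearest in profile to each member called on all libraries, of which 1 is not reported here. Promoter sequences are those of RefSeq on GRCh38.p14, found for all 8 genes. Listed genes not in the table were not analysed here.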

Additional observations from a re-analysis of the deposited data

Results flagged for a closer look

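In the library labelled NAA40-KD (-dox) replicate 4, *DNMT1* stood at 273.3 CPM and *UHRF1* at 109.9 CPM, each far above the other 3 libraries of the group, which lay between 174.1 and 188.2 CPM for *DNMT1* and between 51.88 and 55.37 CPM for *UHRF1*. The gap was 0.858 of the group's range for *DNMT1* and 0.940 for *UHRF1*, above Dixon's limit for a group of 4. These were 2 of 36 groups examined, and chance alone marks about 5% of groups.

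The difference in *NAA40* between the lines itself differed between the dox labels, with an interaction of 1.46 ± 0.184 on the log2 scale (edgeR's quasi-likelihood test, adjusted p = 0.000220). *NAA40* was lower in the hairpin line in the libraries labelled (-dox) and not in those labelled (+dox).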

How the results depend on the processing

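For NAA40-KD (-dox) against SCR (-dox), where 0 members were called, DESeq2 called 1 and an adjusted p limit of 0.1 called 1, the fit over all 16 libraries 2 and the offset for GC content and length 4 (37% of all genes), and leaving out 1 library gave 0 to 4 members called, the highest without NAA40-KD (-dox) replicate 4. For NAA40-KD (+dox) against SCR (+dox), where 2 were called, an adjusted p limit of 0.01 and the fit over all 16 libraries called 0, upper-quartile scaling and no filter on low counts 1 each, and the offset 4 (35.3% of all genes), and leaving out 1 library gave 0 to 2. In the fit with a replicate block, 4 members were called in that comparison (*DNMT3B*, *UHRF1*, *TET1* and *TET3*), and 0 in the other comparisons. Deviations of libraries with the same number correlated at -0.40 to 0.63 over 24 pairs, 9 of them above 0.1, and those with different numbers at -0.52 to 0.53 over 72 pairs, 19 above 0.1. In none of the groups compared were all 4 pairs above 0.1, so the numbers were not taken to pair the samples, although all 4 were for SCR (+dox) with NAA40-KD (-dox), 0.20 to 0.63. For NAA40-KD (+dox) against NAA40-KD (-dox), where 0 were called, the fit over all 16 libraries called 1, the offset 6 (44.7% of all genes), and leaving out 1 library gave 0 to 7. For the interaction, where 0 were called, the offset called 5 (30.9% of all genes), and leaving out 1 library gave 0 to 2. The *NAA40* level in NAA40-KD (+dox), as a share of SCR (+dox), was 108.9% to 112.8% with 1 library left out, and the exact test passed without NAA40-KD (+dox) replicate 3.

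Among single members, the directions that turned belonged to differences not called on all libraries. With 1 library left out, *UHRF2* ranged from -0.22 to 0.04 in NAA40-KD (-dox) against SCR (-dox), *DNMT3A* from -0.09 to 0.14 in NAA40-KD (+dox) against SCR (+dox), *TET2* from -0.21 to 0.01 in NAA40-KD (+dox) against NAA40-KD (-dox) and from -0.07 to 0.15 in the interaction. In SCR (+dox) against SCR (-dox) the ranges were -0.17 to 0.05 for *DNMT3A*, -0.19 to 0.03 for *UHRF1*, -0.05 to 0.10 for *UHRF2* and -0.17 to 0.10 for *TET1*. Library-size scaling gave -0.00 for *UHRF2* there, and the offset gave 0.02 for *TET1* there and -0.09 for *TET2* in the interaction. The cause of these shifts was not tested. *TET1* rested on 65 to 181 counts per library, and the smallest difference that this depth could show was not measured.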
